A study of Drosophila melanogaster with 6 samples.

Results

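Peroxiredoxins, superoxide dismutases and catalase were followed in whole *Drosophila melanogaster* embryos aged 16-20 h. The labels give a temperature of 25 °C for every library. The set was 10 genes picked by name out of 17208 in the deposited count table: *Prx2540-1*, *Prx2540-2*, CG12896, *Jafrac1*, *Jafrac2*, *Prx3*, *Prx5*, *Sod1*, *Sod2* and *Cat*. All 10 passed the filter on low counts. They were picked with the difference between the genotypes already known, so their fold changes and calls are a description and not independent tests. The compared embryos were ft fd5-5/ft X13, a combination of *fat* alleles that the submitters call null (*ft* null from here on, 4 libraries), or *w1118* (2 libraries), a *white* mutant strain used as wild type. *fat* encodes a giant cadherin of planar polarity and growth control. The mutants combine different *ft* alleles and *w1118* is a separate strain. What the *ft* alleles do and what the genetic background does therefore cannot be told apart. The labels give no mean age within the collection window and do not say whether embryos came from separate collections, so the spread between libraries may be technical.

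Reactive oxygen is cleared in steps. Superoxide dismutases turn superoxide into hydrogen peroxide, Sod1 in the cytosol with copper and zinc, Sod2 in mitochondria with manganese. Catalase, in peroxisomes, and the peroxiredoxins then break down the peroxide. Typical 2-Cys peroxiredoxins are Jafrac1 in the cytosol, Jafrac2 in the secretory pathway and Prx3 in mitochondria. Of these, Jafrac1 and Prx3 are recharged by thioredoxin. Prx5 is an atypical 2-Cys form, and the Prx2540 proteins and CG12896 are of the Prx6 type, which works with a single catalytic cysteine.

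Totals ran from 21261928 to 29151981 estimated counts in *ft* null and were 29131506 and 22217098 in *w1118*. *ft* itself stood at 28.6, 29.0, 32.2 and 30.5 CPM in *ft* null, against 43.2 and 46.3 CPM in *w1118*, where CPM is counts per 1000000 of the library size scaled by TMM factors. The *ft* null libraries thus lay below both *w1118* libraries (log2 fold change -0.57, SE 0.11). Muscle markers summed to 42347 to 51339 CPM in *ft* null and to 49654 and 55971 CPM in *w1118*, and 6 of 7 maternal or adult genes were under 1 CPM in every library. *ft* null replicate 1 stands somewhat apart, with a Spearman rho of 0.977 to 0.987 across genes to the other *ft* null libraries, which reached 0.994 among themselves.

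Among the members, *Prx2540-1*, *Prx2540-2* and CG12896 differed most. In *ft* null embryos they rose by 2.92 (SE 0.30), 2.68 (SE 0.28) and 4.66 (SE 0.49) on the log2 scale. That is 7.59-fold, 6.41-fold and 25.2-fold. *Prx6005*, a further peroxiredoxin gene outside the 10, had 11.4 ± 1.04 CPM in *ft* null and 12.0 ± 2.20 CPM in *w1118* (± SD). Its log2 fold change was -0.07 (SE 0.17, edgeR adjusted p = 0.863). A gene was called under an adjusted p of 0.05 in edgeR's quasi-likelihood test over 11542 genes. Of the 10 members 3 were called higher, 0 lower and 7 not called, where 4.3% of all tested genes were called, 2.15% higher and 2.15% lower. At an unadjusted p under 0.05 the members counted 4 higher and 1 lower, where 9.92% and 10.2% of all tested genes were. DESeq2 called 3 members higher and 1 lower, *Cat*, where it called 4.48% of the 11537 genes it gave an adjusted p higher and 3.93% lower. limma voom called 3 members higher and 0 lower, where it called 2.21% and 2.33% of all tested genes.

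*Prx2540-1* (FBgn0033520, now named *Prx6b*, dm6 2R from 10424436 to 10425471, plus strand) had 22.7, 37.7, 40.4 and 41.5 CPM in *ft* null, against 5.46 and 3.85 CPM in *w1118*. *Prx2540-2* (FBgn0033518, now *Prx6c*, 2R from 10418718 to 10419761, plus strand) had 38.7, 66.4, 76.5 and 67.6 CPM in *ft* null, against 10.1 and 9.31 CPM in *w1118*. CG12896 (FBgn0033521, 2R from 10426880 to 10427915, minus strand) had 14.7, 20.7, 22.7 and 21.3 CPM in *ft* null, against 1.23 and 0.229 CPM in *w1118*. For each copy all 4 mutant libraries lay above both controls, and *ft* null replicate 1 was the lowest of the mutants. Such a separation, in either direction, was seen in 31.5% of all tested genes.

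These genes are near-identical copies (their sequences were not compared here), each with 4 exons and 660 coding bases. A quantifier divides reads they share by a model, so their separate values are less certain than their sum. Summed per library, they held 1603, 2735, 3331 and 3735 estimated counts in *ft* null and 516 and 292 in *w1118*. That is 76.2, 125, 140 and 130 CPM in *ft* null and 16.8 and 13.4 CPM in *w1118*. The mean sum was 118 ± 28.4 CPM over 4 *ft* null libraries and 15.1 ± 2.41 CPM over 2 *w1118* libraries (± SD). With the 3 rows replaced by their sum, the log2 fold change was 2.96 (SE 0.28), or 7.79-fold, and the sum was called, where 4.27% of 11540 genes were. In a whole embryo, more cells that use these genes and more RNA per cell cannot be told apart.

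**Figure D1:**
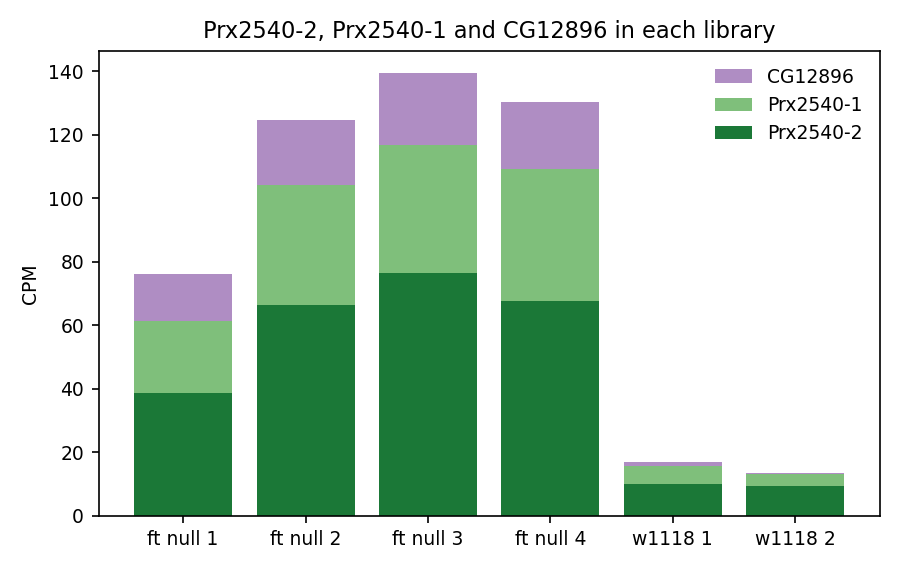
Stacked bars give the CPM of CG12896, *Prx2540-1* and *Prx2540-2* in each library, *ft* null on the left and *w1118* on the right. The 4 *ft* null bars reach 76.2 to 140 CPM and the *w1118* bars reach 16.8 and 13.4 CPM, with CG12896 barely visible in *w1118*.

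The division among the copies also differed between the libraries. *Prx2540-2* held the largest part of the summed counts in all 6 libraries, 50.8%, 53.2%, 54.8% and 51.8% in *ft* null and 60.2% and 69.5% in *w1118*. *Prx2540-1* held 29.8%, 30.2%, 28.9% and 31.8% in *ft* null, overlapping the 32.5% and 28.8% of *w1118*. CG12896 held 19.3% (95% Wilson interval 17.5 to 21.3), 16.6% (15.2 to 18.0), 16.2% (15.0 to 17.5) and 16.3% (15.2 to 17.6) in *ft* null. In *w1118* it held 7.35% (5.40 to 9.93) and 1.71% (0.734 to 3.95), on 38 and 5 rounded counts. CG12896 thus took a larger part in every mutant library than in either control, and the 2 controls also differed from each other. These intervals cover counting error only and not the division by the model. Without *w1118* replicate 1 the log2 fold change of CG12896 was 6.40, and without *w1118* replicate 2 it was 4.01.

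The copies lie within 9198 bases of 2R, *Prx2540-2* first, then *Prx2540-1* after 4674 bases and CG12896 after a further 1408 bases on the opposite strand. Another gene inside that stretch rose with them: CG11825 (2R from 10420414 to 10423650, minus strand), between *Prx2540-2* and *Prx2540-1*. It had 9.64, 11.7, 15.2 and 11.2 CPM in *ft* null, against 2.50 and 1.42 CPM in *w1118*. The mutant libraries all lay above both controls (log2 fold change 2.58, SE 0.30, edgeR adjusted p = 0.0031). A separation toward higher levels was seen in 15.1% of all tested genes. Without *w1118* replicate 1 the log2 fold change of CG11825 was 3.07, and without *w1118* replicate 2 it was 2.26. Its direction was kept in all 17 alternative settings.

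CG33474 lies within the span of CG11825 on the other strand and did not pass, with 1.09, 3.38, 4.31 and 3.11 CPM in *ft* null and 3.44 and 3.26 CPM in *w1118* (log2 fold change -0.17, SE 0.44, edgeR adjusted p = 0.874). The library kit does not mark strand, so reads of CG33474 and CG11825 in shared sequence cannot be told apart. Of the 3 genes on either side of the copies, none passed in edgeR. *SLO2*, a potassium channel gene before them, was at 17.1 ± 2.50 CPM in *ft* null and 25.2 ± 8.25 CPM in *w1118* (log2 fold change -0.55, edgeR adjusted p = 0.202). After them, *RanBPM*, CG12895 and *Galphao*, a G protein subunit gene, had log2 fold changes of -0.17, 0.23 and -0.25 (edgeR adjusted p from 0.327 to 0.603). CG33475 and CG33476 held at most 5 counts in any library and were not tested. At an unadjusted p under 0.05, *SLO2* passed among these outer genes. The mutant libraries of *SLO2*, *RanBPM* and *Galphao* all lay below both controls, while the groups of CG12895 overlapped. Such a separation toward lower levels was seen in 16.4% of all tested genes.

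**Figure D2:**
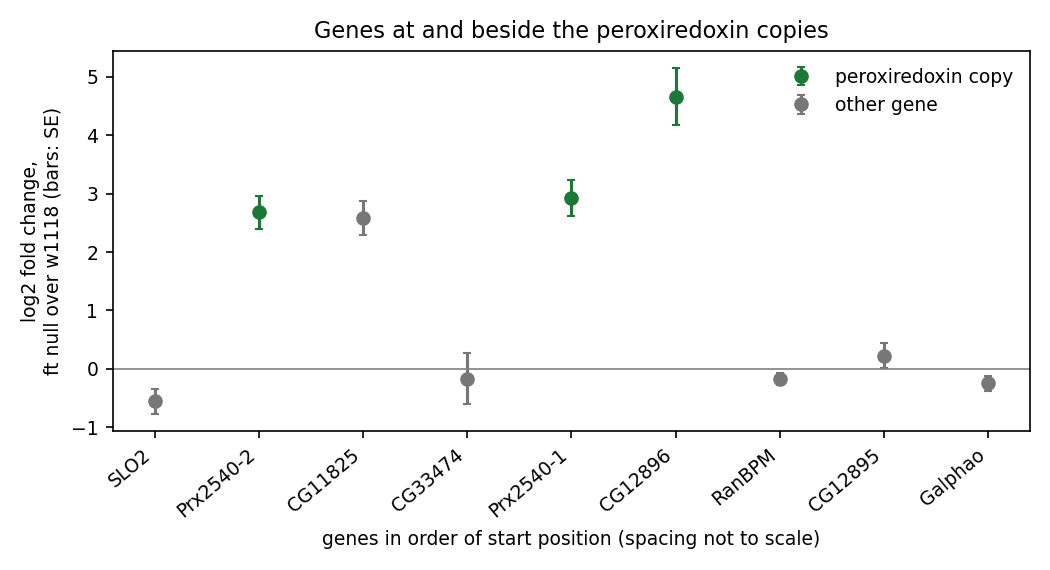
Points give the log2 fold change of *ft* null over *w1118* for each tested gene at the copies and beside them, in order of start position, with the SE as bars. *Prx2540-2*, CG11825, *Prx2540-1* and CG12896 sit at 2.58 to 4.66, and the other 5 genes between -0.55 and 0.23.

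The profile of the summed copies over the 6 libraries was most like that of CG5704, CG16935, *clt*, CG42825 and CG15254 among 9793 genes. Pearson's r of log2 CPM was 0.997 for CG5704 and 0.994 for CG15254, with 4 mutant and 2 control points each. Only CG42825 and CG15254 came near the copies in size. CG42825 had 4.18, 8.67, 7.87 and 9.05 CPM in *ft* null and 0.422 and 0.459 CPM in *w1118* (log2 fold change 4.07, SE 0.42). CG15254 had 3.94, 7.30, 8.25 and 6.95 CPM in *ft* null and 0.422 and 0.504 CPM in *w1118* (log2 fold change 3.84, SE 0.40). All 5 genes were, like the copies, lowest among the mutants in *ft* null replicate 1. They were picked for their profile over these same libraries, so this is no separate likeness. The log2 fold changes of CG5704, CG16935 and *clt* were 0.99, 0.91 and 0.90.

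The 4 other peroxiredoxins were not called. *Jafrac1* (FBgn0040309, now *Prx2*, X from 13329824 to 13331994) had 36.5, 44.8, 48.8 and 48.1 CPM in *ft* null and 49.0 and 42.8 CPM in *w1118*. Its groups overlapped (log2 fold change -0.04, SE 0.14), and *ft* null replicate 1 was the lowest library, as for the Prx6-type copies. *Jafrac2* (FBgn0040308, now *Prx4*, 3L from 3042359 to 3044174), whose protein in flies can also bind the caspase inhibitor Diap1, had 39.2, 38.2, 38.8 and 35.0 CPM in *ft* null and 35.6 and 29.5 CPM in *w1118*. It overlapped through *ft* null replicate 4 and *w1118* replicate 1 (log2 fold change 0.21, SE 0.12).

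*Prx3* (FBgn0038519, 3R from 17545222 to 17546531), the mitochondrial 2-Cys form, had 119, 122, 131 and 114 CPM in *ft* null. The *w1118* libraries, at 137 and 99.6 CPM, enclosed all the mutants (log2 fold change 0.04, SE 0.14). *Prx5* (FBgn0038570, 3R from 18165442 to 18167273) had 113, 113, 91.0 and 98.9 CPM in *ft* null and 83.6 and 77.5 CPM in *w1118*. Its mutant libraries all lay above both controls, yet it was not called (log2 fold change 0.37, SE 0.13). A separation toward higher levels in *ft* null was seen in 15.1% of tested genes.

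**Figure D3:**
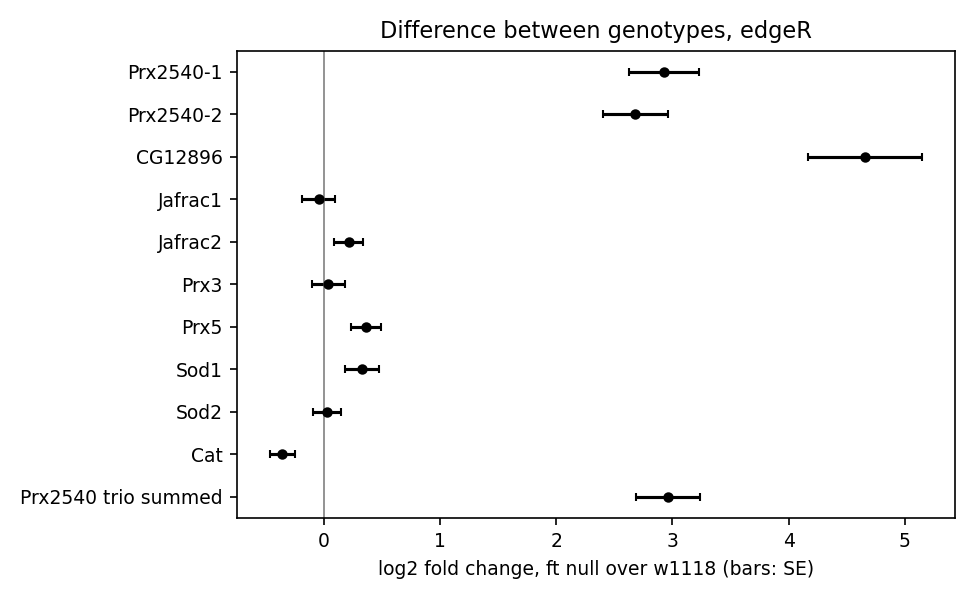
Points give the edgeR log2 fold change of *ft* null over *w1118* for each member and for *Prx2540-1*, *Prx2540-2* and CG12896 summed, with the SE as bars. The Prx6-type copies sit between 2.68 and 4.66 and the other 7 members between -0.35 and 0.37.

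*Sod1* (FBgn0003462, 3L from 11112281 to 11113740) had 95.7, 97.9, 78.4 and 85.0 CPM in *ft* null and 79.5 and 62.4 CPM in *w1118*. The groups overlapped at *ft* null replicate 3 and *w1118* replicate 1 (log2 fold change 0.33, SE 0.15). *Sod2* (FBgn0010213, 2R from 16772785 to 16773915) had 105, 114, 104 and 99.0 CPM in *ft* null, inside the span of the *w1118* libraries at 113 and 94.1 CPM but for 1 mutant library (log2 fold change 0.03, SE 0.12). *w1118* replicate 2 was the lower control for each of the 10 members. Neither dismutase was called.

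*Cat* (FBgn0000261, 3L from 18822604 to 18828188) had 539, 555, 564 and 529 CPM in *ft* null and 729 and 669 CPM in *w1118*. It was the 1 member whose mutant libraries all lay below both controls, and its mutant libraries had the smallest coefficient of variation of the 10 members, 2.89%, at 547 ± 15.8 CPM (SD, n = 4) against 699 ± 42.8 CPM in *w1118* (SD, n = 2). A separation toward lower levels was seen in 16.4% of tested genes. The log2 fold change of *Cat* was -0.35 (SE 0.11). edgeR did not call it, DESeq2 did, and limma voom did not. Over the 7 members outside the Prx6-type copies, the adjusted p of edgeR ran from 0.119 to 0.923.

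Levels of different genes were compared as CPM per kilobase of exon. *Cat* ranked first in both genotypes, at 274 ± 7.94 in *ft* null and 351 ± 21.5 in *w1118*. *Prx3*, *Sod2* and *Sod1* followed, at 104 to 121 in *ft* null and 96.5 to 116 in *w1118*, with ranges that overlapped between neighbours in the order. In *w1118* the Prx6-type copies took the last 3 places, with *Prx2540-2* at 11.3 ± 0.657, *Prx2540-1* at 5.49 ± 1.34 and CG12896 at 0.863 ± 0.838 (SD, n = 2). In *ft* null *Prx2540-2* took place 5, at 72.8 ± 19.1, with a range that overlapped that of *Prx5* (71.6 ± 7.42). *Prx2540-1*, at 42.0 ± 10.3, stood above *Jafrac1* (30.4 ± 3.86) and *Jafrac2* (29.8 ± 1.53), though its range overlapped that of *Jafrac1*. CG12896 stayed last, at 23.4 ± 4.14 (SD, n = 4). Part of this order depended on the length used: per kilobase of coding sequence, *Prx5* took place 3 in *ft* null, *Prx2540-2* place 6, *Jafrac1* place 7 and *Prx2540-1* place 8.

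**Figure D4:**
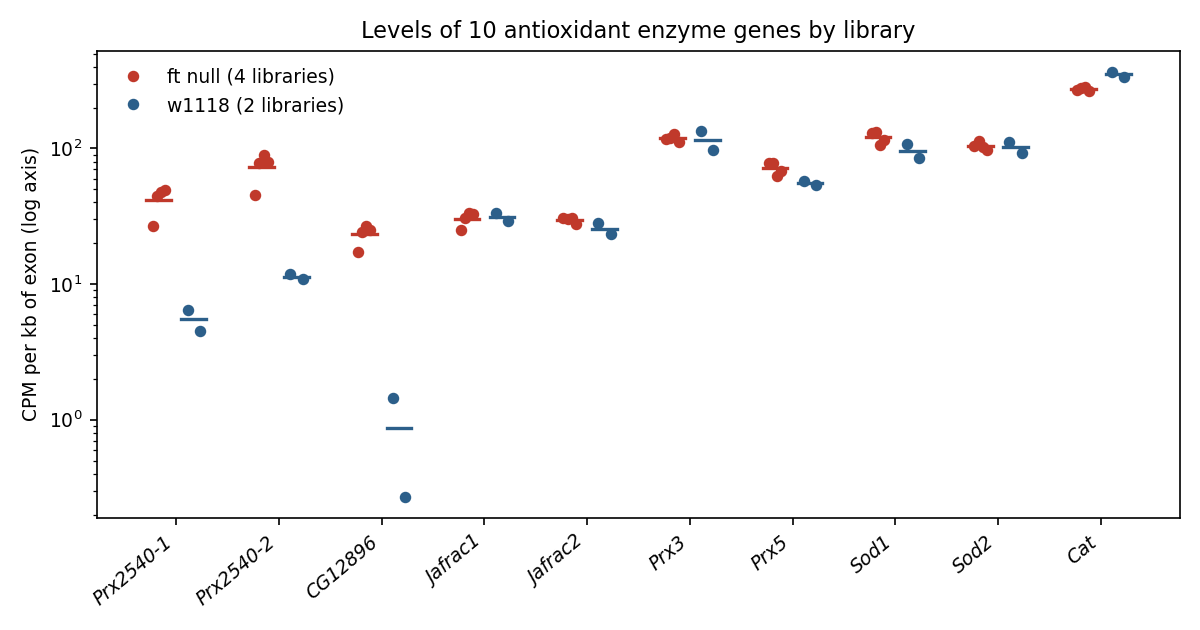
Each point is a library and each short line a genotype mean, in CPM per kb of exon on a log axis, with *ft* null left of *w1118* for each gene. *Prx2540-1*, *Prx2540-2* and CG12896 lie farthest apart between genotypes, the libraries of *Prx5* and *Cat* do not overlap either, and *Cat* is the highest gene in both genotypes.

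On that per-length scale, the Prx6-type copies made up 26.3%, 36.2%, 39.1% and 38.9% of the summed level of the 7 peroxiredoxins in *ft* null and 7.21% and 7.15% in *w1118*. The 7 genes summed to 340, 405, 419 and 394 CPM per kb in *ft* null, above the 273 and 219 CPM per kb of *w1118*. The other 4 peroxiredoxins alone gave 241 to 258 CPM per kb in *ft* null, overlapping the 254 and 204 CPM per kb of *w1118*. The ratio of *Cat* to the summed dismutases was 1.16, 1.13, 1.35 and 1.24 in *ft* null and 1.67 and 1.89 in *w1118*. The mean share of the copies among the 7 peroxiredoxins was 35.1% in *ft* null and 7.18% in *w1118*. With exon lengths replaced by coding lengths, that mean share was 26.7% in *ft* null and 5.01% in *w1118*.

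Most of the wider redox machinery did not pass the test. Across 11 lists with 104 genes in the table, 94 were tested, of which 3 were called higher and 0 lower. That is 3.19%, against 4.3% of all tested genes, and the median log2 fold change was 0.05, against 0.01 over all tested genes. The 3 were *ry*, *ScpX* and *cysu*. *ry*, which encodes xanthine dehydrogenase of purine breakdown, had 113, 119, 125 and 116 CPM in *ft* null and 54.0 and 60.0 CPM in *w1118*. No mutant library overlapped a control (log2 fold change 1.06, SE 0.11, edgeR adjusted p = 0.00211). *ry* was in a list of oxidant producing enzymes with 8 genes tested. Of these, 3 had a log2 fold change above 0, and the median was -0.14. At an unadjusted p under 0.05, 2 of the 8 were higher and 2 lower, where 9.92% and 10.2% of all tested genes were.

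*ScpX*, for a peroxisomal sterol carrier protein related to thiolases, had 119, 127, 131 and 113 CPM in *ft* null and 71.5 and 60.6 CPM in *w1118*, again without overlap (log2 fold change 0.89, SE 0.12, edgeR adjusted p = 0.00669). Its call was lost without *w1118* replicate 2 (edgeR adjusted p = 0.0608). *cysu*, a heme peroxidase gene, was at 294 ± 32.6 CPM in *ft* null and 171 ± 15.5 CPM in *w1118* (log2 fold change 0.78, SE 0.14, edgeR adjusted p = 0.0219). For *cysu* the call was lost when *ft* null replicate 2, *ft* null replicate 3 or either *w1118* library was left out (edgeR adjusted p from 0.068 to 0.102) and with the replicate number as a block (edgeR adjusted p = 0.0601).

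The lists given next, which include partners that recharge or refuel the members, held no gene called by edgeR. Of 9 tested genes of thioredoxin and of related folds, 1 was higher at an unadjusted p under 0.05, where 9.92% of all tested genes were. The gene with the highest level there was *ERp60*, an oxidoreductase of the endoplasmic reticulum, with a log2 fold change of 0.22. Of 10 glutathione genes, 1 was higher at that level, against the same 9.92%, and *Gss2*, for glutathione synthetase, had a log2 fold change of -0.07. The 6 genes of NADPH supply and related dehydrogenases and 6 genes of other dismutases and copper delivery had 0 at an unadjusted p under 0.05. The same held for 4 repair genes and 2 further peroxiredoxin or sulfiredoxin genes. The most abundant genes of these 4 lists were *Men* (malic enzyme, -0.22), *ATP7* (a copper pump, 0.06), *Sesn* (sestrin, -0.12) and CG6762 (sulfiredoxin, -0.03).

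Among 12 genes of the CncC-Keap1 oxidant response and related stress factors, 3 were lower at an unadjusted p under 0.05, where 10.2% of all tested genes were. The 3 were *ref(2)P*, *foxo* and *Ask1*, with log2 fold changes of -0.51, -0.37 and -0.25, and none was called by edgeR. Of the 12 genes 3 had a log2 fold change above 0, and the median was -0.10. *crc*, the ATF4 gene and the most abundant of the 12, had a log2 fold change of -0.01. DESeq2 called 1 of these 12 lower and limma voom 0. Of 12 iron and metal genes, 1 was higher at an unadjusted p under 0.05, where 9.92% of all tested genes were. *Fer1HCH*, a ferritin gene of that list, had a log2 fold change of 0.13. Neither DESeq2 nor limma voom called any gene of the iron, thioredoxin, glutathione, NADPH, copper, repair and further peroxiredoxin lists. Of 20 peroxisome genes, the compartment of catalase, *ScpX* was called and 19 were not, and the median of the 20 was 0.01. At an unadjusted p under 0.05, 2 were higher and 3 lower, where 9.92% and 10.2% of all tested genes were. DESeq2 and limma voom each called 1 peroxisome gene higher and 0 lower.

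**Figure D5:**
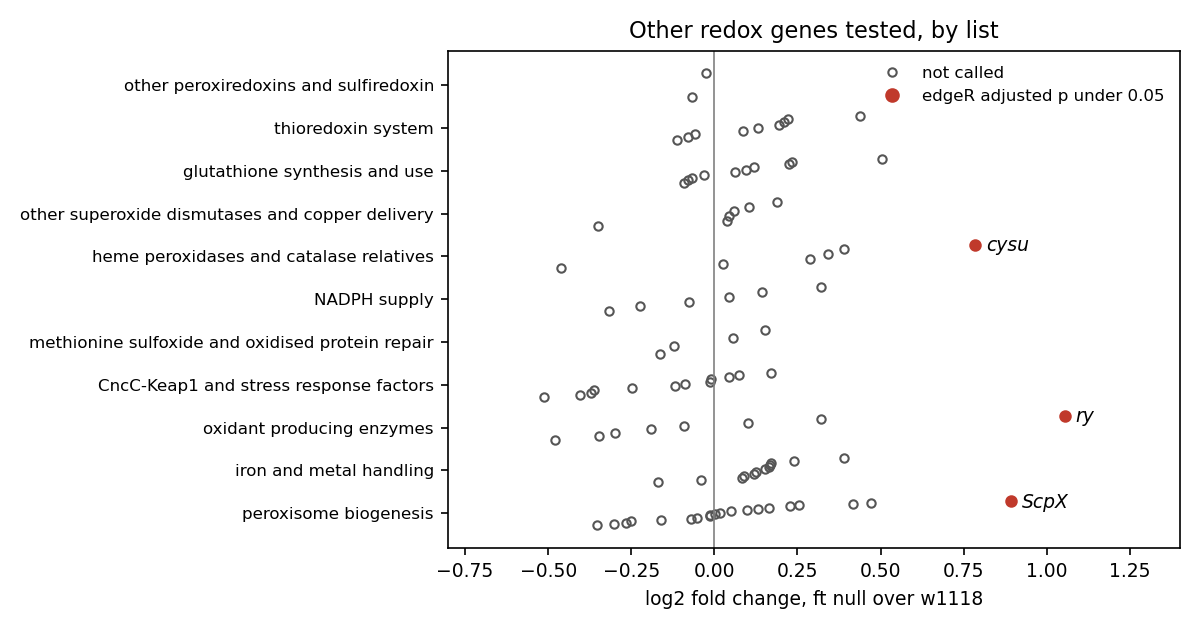
Each circle is a tested gene of a redox list, placed by its log2 fold change of *ft* null over *w1118*. Filled circles mark *cysu*, *ry* and *ScpX*, the 3 genes called by edgeR, at 0.78, 1.06 and 0.89, and the open circles lie between -0.51 and 0.51.

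Some tissue markers moved between the same libraries. Over all tested genes, 9.92% were higher and 10.2% lower at an unadjusted p under 0.05. Of all tested genes, edgeR called 2.15% higher and 2.15% lower, DESeq2 4.48% and 3.93%, and limma voom 2.21% and 2.33%. Tracheal markers summed to 2780 to 3766 CPM in *ft* null and to 2598 and 2482 CPM in *w1118*. *Gasp*, at 2978 ± 482 CPM in *ft* null and 2116 ± 166 CPM in *w1118*, made up most of that sum and was not called. Of 6 tracheal markers *btl* was called higher, 3 had a log2 fold change above 0, *pio* and *Cht5* were at -0.58 each, and the median was 0.05. Oenocyte markers summed to 410 to 433 CPM in *ft* null and to 326 and 384 CPM in *w1118*. Among 4 tested, *Cyp4g1* was called higher, at 178 to 193 CPM in *ft* null and 106 and 124 CPM in *w1118*, *svp*, *salm* and *FASN3* had log2 fold changes of 0.06, -0.05 and -0.02, and *Desat2* was under 1 CPM throughout. Hemocyte markers summed to 707 to 816 CPM in *ft* null and to 948 and 1025 CPM in *w1118*. Among 10, *Sr-CI* was called higher and *PPO2* lower. *PPO2* stood at 114 ± 25.7 CPM in *ft* null and 335 ± 33.4 CPM in *w1118*. *PPO1*, not called, stood at 84.7 ± 24.4 and 144 ± 21.1 CPM. Of the 10 hemocyte markers 6 had a log2 fold change above 0, and the median was 0.10. At an unadjusted p under 0.05, 3 were higher and 3 lower. Midgut markers summed to 278 to 305 CPM in *ft* null and to 368 and 412 CPM in *w1118*. Of 6 tested midgut markers edgeR and limma voom called 0 and DESeq2 1, and 2 were lower at an unadjusted p under 0.05. Of 10 muscle markers edgeR and limma voom called 0 and DESeq2 3 lower, and 3 were lower at an unadjusted p under 0.05. Epidermis and cuticle markers summed to 13000 to 16829 CPM in *ft* null and to 11846 and 13783 CPM in *w1118*. Of 8 of them edgeR and limma voom called 0 and DESeq2 1 higher, and 3 were higher at an unadjusted p under 0.05. Neuronal markers summed to 1120 to 1352 CPM in *ft* null and to 1183 and 1612 CPM in *w1118*, with 0 of 8 called by edgeR, DESeq2 or limma voom and 2 lower at an unadjusted p under 0.05. The part of these tissues in the values of the peroxiredoxin copies or *Cat* was not tested.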

How the data were processed

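RNA-seq was done on 4 *ft* null and 2 *w1118* embryo libraries. The SMARTer Ultra Low kit was used on 10 ng of RNA with 12-15 cycles of amplification and paired reads of 150 bases, per the labels' protocols. The authors deposited estimated counts per gene, not normalized; per the submitters' processing notes, Trimmomatic 0.33, Salmon 1.80 and build dm6 were used; their options are not stated there. The deposited counts were rounded, filtered with filterByExpr, scaled by TMM and fitted with genotype as the term over all 6 libraries in edgeR 4.0.16 (R 4.3.3). Adjustment was by Benjamini and Hochberg's method, over 11542 genes; the SE is the log2 fold change over the square root of F. The common biological coefficient of variation was 18.2%. Positions, exon and coding lengths came from Ensembl release 115, which uses dm6 coordinates. DESeq2 1.42.0, limma 3.58.1, other scalings and filters, left-out libraries and a replicate block were alternatives. The scripts were tested on simulated data.

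The members, gene lists and tests were chosen with earlier results of these data known. Named genes are the 10 members, up to 4 called genes per list or else its most abundant gene, the 3 genes on either side of the copies with those between them, and the 5 genes most like the summed copies by Pearson's r among genes with an average log2 CPM of at least 1. Log2 CPM used a prior count of 2. Of the list entries, 16 did not match a gene of the table. Tissue markers, *Prx6005*, *ref(2)P*, *foxo* and *Ask1* were named after their values were seen. No 2 libraries agreed within sampling noise. Depths of 21261928 to 29151981 estimated counts put the members at 4.7 to 22454 counts per library.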

Additional observations from a re-analysis of the deposited data

Results flagged for a closer look

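The share of CG12896 in the summed counts of the Prx6-type copies was 19.3% in *ft* null replicate 1, against 16.2% to 16.6% in the other *ft* null libraries. The gap to the nearest library took up most of the range of the 4 libraries, 0.894 of it. This was 1 of 15 groups of 4 values examined in this way, and chance sets off about 1 in 20 such groups. The same library had the lowest summed level of the copies.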

How the results depend on the processing

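Over 17 alternative settings, *Prx2540-1*, *Prx2540-2* and CG12896 kept their direction and their call in all 51 fits. For *Prx2540-1* and *Prx2540-2* the calls lay close to the threshold where 1 *w1118* library was left in the fit. The sum of the copies had a log2 fold change of 2.82 to 3.14 without each library in turn and 2.70 with the replicate block. Leaving out any 1 library left 3 members called higher and 0 lower. Replicate numbers 1 and 2 are shared by the genotypes but the labels tie them to no batch, and deviations of same-numbered libraries correlated at 0.15 and -0.04 across genes; the block changed no call of a member.

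The count of genes called over the whole table depended on the libraries and the tool. It was 101 to 410 higher and 72 to 374 lower without 1 library, 517 and 453 in DESeq2, and 111 and 102 with replicates 1 and 2 only. Without both *ft* null replicate 1 and *w1118* replicate 2, a setting chosen after seeing the data, 502 were higher and 323 lower. DESeq2 called 1 member lower, *Cat*, and 1 redox list gene lower. Redox list genes called higher were 1 to 3 without 1 library and 1 with replicates 1 and 2 only, and 6 higher with 1 lower in the added setting. Lost calls were 2 of 17 for *ScpX*, 6 of 17 for *cysu* and 0 of 17 for *ry*. Coding length put the copies at a mean of 26.7% and 5.01% of the summed level of the peroxiredoxin members in *ft* null and *w1118*. With exon length the means were 35.1% and 7.18%.

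Genes that were not called could change sign. With total counts only, *Prx3* was at -0.0091 and *Sod2* at -0.017. Without 1 library, *Prx3* ran from -0.17 to 0.29, *Sod2* from -0.091 to 0.17, *Jafrac1* from -0.13 to 0.059, CG6762 from -0.35 to 0.40, *ATP7* from -0.053 to 0.18 and *crc* from -0.052 to 0.026. With replicates 1 and 2 only, CG6762 was at 0.061 and *Sesn* at 0.043, and with the block at 0.095 and 0.043. In the added setting *Prx3* was at -0.16, *Sod2* at -0.089, *crc* at 0.044 and *Fer1HCH* at -0.00053. The cause of these changes was not tested. The 5 rounded counts of CG12896 in *w1118* replicate 2 limit its fold change more than that of the other copies.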
